A study of Macaca mulatta with 2 samples.

Results

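Solute carriers are the largest family of membrane transporters, and in the eye they move the glucose, lactate, amino acids, ions, vitamins and transmitters on which vision depends. Photoreceptors and retinal neurons fill their synaptic vesicles with transmitter through vesicular members of the family and take up taurine and other solutes through plasma membrane members. The retinal pigment epithelium (RPE) behind the neural retina uses others to pass nutrients and lactate to and from the blood. The genes described here were all those with a symbol of SLC followed by a digit and at least 20 unique molecular identifiers (UMIs, each standing for 1 captured transcript molecule) over the tissue spots of both sections. They were chosen by these UMI sums, so their total abundance is a description only, and SLC39A12, SLC6A9, SLC6A11 and SLC1A3 were left out by name. The choice left 157 genes of the 26533 in the reference and of 355 SLC symbols, among which 100 had 0 UMIs and 94 had 1 to 19. SLC30A1, with 20 UMIs, lay just inside the limit, and SLC4A8 and SLC35G2, with 19 each, just outside. Among the 157, 5 symbols, SLC9A3R1, SLC9A3R2, SLC2A4RG, SLC4A1AP and SLC7A6OS, carry the prefix by name and do not encode transporters.

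The data were Visium spatial transcriptomes of 2 full-thickness punches of 4 mm (retina, choroid and sclera) from the posterior eyecup of male rhesus macaques, 1 from the right eye of NHP1, aged 5 years, and 1 from the right eye of NHP2, aged 6 years. Both punches were labelled uninjected. They came from eyes that had received vector elsewhere under the retina, AAV2-CAG-hRPE65 in NHP1 and in NHP2 both AAV8-GRK1-hRPGR and AAV8-GRK1-mScarlet, a bleb for each, and that were harvested 12 weeks after the injections, which had been given with 40 mg of triamcinolone beside the eye. Each Visium spot is 55 µm wide and can hold several cells of different types. NHP1 had 534 tissue spots with 1484784 UMIs (median 1473.5 per spot) and NHP2 had 470 with 805726 (median 370.5), and the 157 genes took 1.15% and 1.09% of these UMIs. With 1 section per animal there was no replicate, so no test was made. Intervals in parentheses are exact 95% intervals of the UMI counts, cover counting error only, and say nothing of the spread between animals.

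Regions were found by clustering the tissue spots of each section with every SLC gene left out. The levels below thus took no part in the clustering, but were already known when the rule that named the regions was set. By their leading genes with a symbol, in NHP1 the photoreceptor region (71 spots) was led by RIMS2, CNGA1 and RBP3, the inner retina region (96 spots) by SST, GRM3 and BRINP1, the choroid region (69 spots) by CHIT1, MLANA and EDN3, and the sclera region (116 spots) by ANGPTL7, MYOC and CHAD. In NHP2, the photoreceptor region (39 spots) was led by ERMN, OPN1LW and BEST1, the inner retina region (34 spots) by SYNPR, NEFH and FABP5, and 212 spots fell in sclera regions. No region of NHP2 was named choroid, and 182 and 185 spots stayed unnamed. The list of RPE markers was not used to name regions. Its raised share passed that of the class itself in the choroid region of NHP1, where 11 of 15 RPE, 11 of 16 choroid and 9 of 16 sclera markers were raised, and in the photoreceptor region of NHP2, with 12 of 15 RPE and 20 of 26 photoreceptor markers, so that in these classes levels of RPE cannot be told apart from those of the named tissue. A region of 25 spots of NHP1, led by ENPP2, RGR and TIMP3, had 10 of 15 RPE and 11 of 26 photoreceptor markers raised, and 6 RPE markers but no photoreceptor marker among its 10 leading genes, so it stayed unnamed and is described by these genes below. In NHP2 a region of 34 spots with 12 of 16 sclera markers raised but led by PMEL, TAGLN and CCL26, and 64 spots with 7 of 15 RPE markers raised, stayed unnamed too. The summed level of RPE markers was 86.2 UMIs per 10000 in the photoreceptor region of NHP1, 273 in its choroid region, 23.6 in its inner retina and 82.0 in its sclera, against 184, 13.6 and 72.1 in the photoreceptor, inner retina and sclera regions of NHP2. Spots off the tissue also held RNA, at a median of 8 UMIs per spot in NHP1 and 4 in NHP2. Levels off the tissue are shares of that RNA, given for comparison, and are no detection limit.

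**Figure D1:**
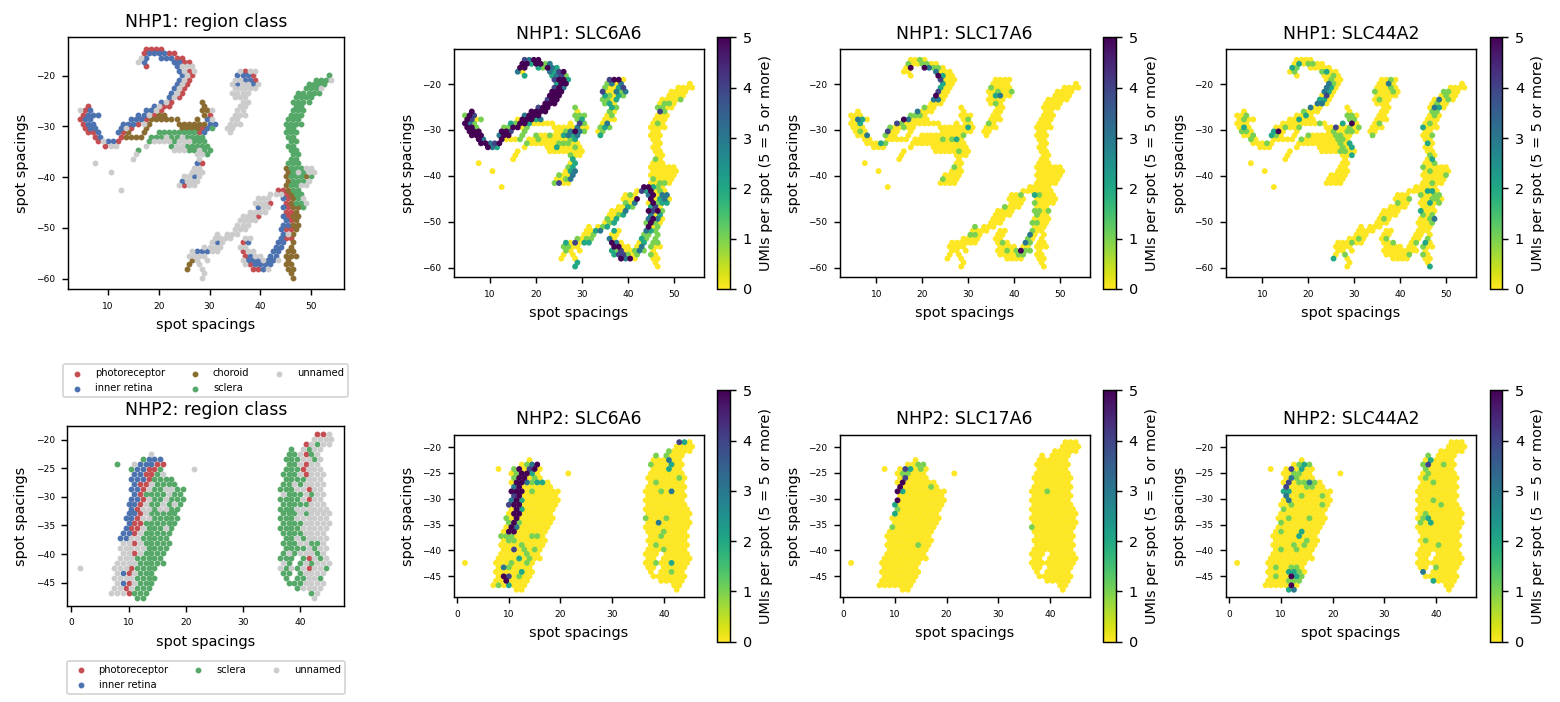
Tissue spots of both sections by region class (left) and by the UMIs per spot of SLC6A6, SLC17A6 and SLC44A2 (colour scale from 0 to 5, where 5 stands for 5 or more). Both axes are in spacings between neighbouring spots. SLC6A6 follows the band of photoreceptor regions, SLC17A6 the inner retina and SLC44A2 is spread over the sclera with isolated spots elsewhere.

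Per 10000 UMIs, the 157 genes together were, among the named classes, most abundant in the photoreceptor regions and least in the sclera of both animals. In NHP1 their summed level was 122.5 (119 to 126) in the photoreceptor regions, 110 (108 to 113) in the inner retina, 109 (104 to 115) in the choroid and 90.1 (84.2 to 96.2) in the sclera. In NHP2 it was 121 (116 to 127), 111 (108 to 114) and 88.7 (84.1 to 93.4) in the photoreceptor, inner retina and sclera regions. The intervals of inner retina and choroid in NHP1 overlapped, and the other neighbours in this order did not. The order was the same in both animals, and off the tissue the sum was 97.4 (94.8 to 100) in NHP1 and 94.8 (88.0 to 102) in NHP2.

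A gene was called higher in a region class when its UMIs per 10000 there were at least 2 times those of all other tissue spots and the interval of that ratio lay above 1. In the photoreceptor regions 11 of the 157 genes (7.01%) were called in NHP1, where 4.86% of all genes with at least 20 UMIs were, and 19 (12.1%) in NHP2, against 7.29%. In the inner retina 8 (5.10%) were called in NHP1, against 5.38%, and 15 (9.55%) in NHP2, against 10.7%. In the sclera 11 (7.01%) were called in NHP1, against 5.71%, and 18 (11.5%) in NHP2, against 11.2%. In the choroid region of NHP1 27 (17.2%) were called, against 10.7%. The shares thus lay near the background in the inner retina and sclera and above it in the photoreceptor regions and the choroid. Calls also depend on depth, since the classes of NHP1 held from 98697 UMIs (sclera) to 591454 (inner retina). In the piece of tissue with the most spots alone, a setting chosen after seeing the data, 11 members (7.01%) were called in the choroid of NHP1, against 6.43% of all genes, and 5 (3.18%) in its inner retina, against 4.13%. In that piece of NHP2 12 (7.64%) were called in the photoreceptor region, against 5.23%, and 1 (0.637%) in the sclera, against 2.12%. The choroid share thus lay near the background within that piece. The median ratio of the 157 genes in the choroid region was 1.06, beside 0.961 over all genes. In all, 4 genes were called in the photoreceptor regions of both animals (SLC6A6, SLC16A1, SLC25A25 and SLC6A12), which is 36.4% of the calls of NHP1 and 21.1% of those of NHP2, beside 48.9% and 32.7% for all genes. The call of SLC6A12 in NHP1 was lost with the SLC genes kept in the clustering, at a ratio of 1.93 (0.939 to 3.87), and with classes by the marker score of each spot, at 1.63 (0.818 to 3.26). Without the piece of tissue with the most spots its ratio was 2.43 (0.954 to 6.00), and in that piece alone 2.81 (0.823 to 8.84), so the call was lost there too. In the inner retina 6 were shared (75.0% and 40%, beside 66.4% and 33.4% for all genes) and in the sclera 8 (72.7% and 44.4%, beside 71.5% and 36.6%). The shared part was thus below that of all genes in the photoreceptor regions and near or above it in the other classes.

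**Figure D2:**
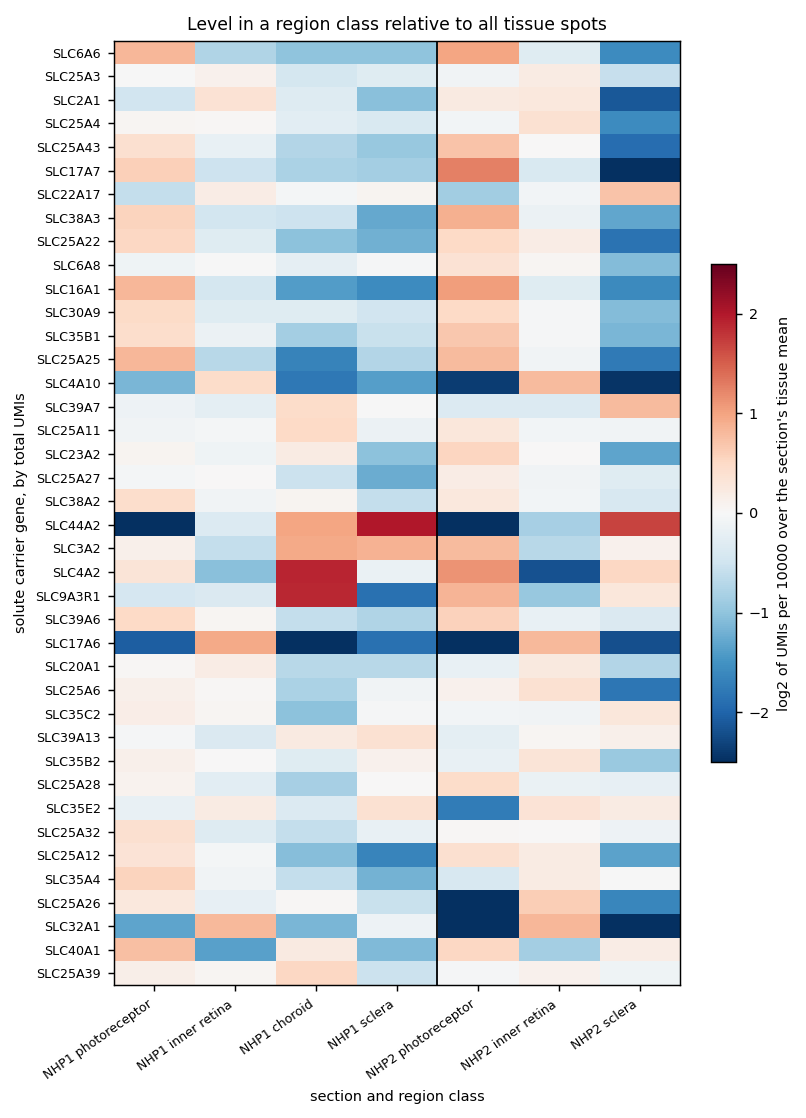
Abundant solute carrier genes, 40 in all, ordered by their UMIs (rows) in each region class of both sections (columns). Colour is log2 of the UMIs per 10000 in the class over the mean of all tissue spots of the section, and colours end at 2.5 either way. The deepest reds of the inner retina columns include SLC17A6 and SLC32A1, and SLC44A2 has the deepest red of both sclera columns.

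The vesicular transporters of transmitters split by layer. SLC17A7 (VGLUT1), which loads glutamate into the synaptic vesicles of photoreceptors and bipolar cells, lay at 6.33 (5.51 to 7.24) UMIs per 10000 in the photoreceptor region of NHP1 and at 5.55 (4.53 to 6.72) in NHP2. Its level in the inner retina was 2.91 (2.49 to 3.38) and 1.78 (1.40 to 2.22), and off the tissue it was 2.66 and 1.43. The photoreceptor regions were thus highest in both animals, with a ratio to the rest of 1.78 (1.51 to 2.11) in NHP1, under the 2-fold limit, and 4.13 (3.07 to 5.58) in NHP2. SLC17A6 (VGLUT2), the glutamate transporter of ganglion cell vesicles, had the opposite order. Its level was 2.13 (1.77 to 2.54) in the inner retina and 0.266 (0.122 to 0.506) in the photoreceptor region of NHP1, and 1.54 (1.19 to 1.96) and 0.0533 (0.00135 to 0.297) in NHP2. The ratio of inner retina to the rest was 4.88 (3.38 to 7.18) and 11.6 (4.75 to 37.1), and the photoreceptor levels lay below those off the tissue (1.13 and 1.17). SLC17A8 (VGLUT3), known from a class of amacrine cells, was rare. It had 15 UMIs in the inner retina and 4 in the photoreceptor region of NHP1. In NHP2 it had 13 in the inner retina and 0 in all other tissue spots. With 3 UMIs taken for the 0 the ratio was 3.82, which is no lower limit.

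SLC32A1 (VGAT), which loads GABA and glycine into vesicles, had 1.17 (0.908 to 1.48) and 1.26 (0.948 to 1.65) in the inner retina, and 0.266 (0.122 to 0.506) and 0.107 (0.0129 to 0.385) in the photoreceptor regions. The intervals of inner retina and photoreceptor regions did not overlap in either animal, and off the tissue the level was 0.688 and 0.260. SLC1A1 (EAAT3), a neuronal glutamate uptake carrier, showed a smaller contrast, with a ratio of inner retina to the rest of 1.93 (0.996 to 3.80) in NHP1 and 2.65 (1.01 to 8.15) in NHP2. Of the 8 neurotransmitter and vesicular members, 4 were called in the inner retina of NHP1 and 5 in that of NHP2, against 5.38% and 10.7% of all genes. In NHP2 1 each was called in the photoreceptor region and sclera, against 7.29% and 11.2% of all genes. The one of the sclera was SLC10A4, a carrier of cholinergic and monoaminergic vesicles, which had 12 UMIs there and 1 UMI in that of NHP1.

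**Figure D3:**
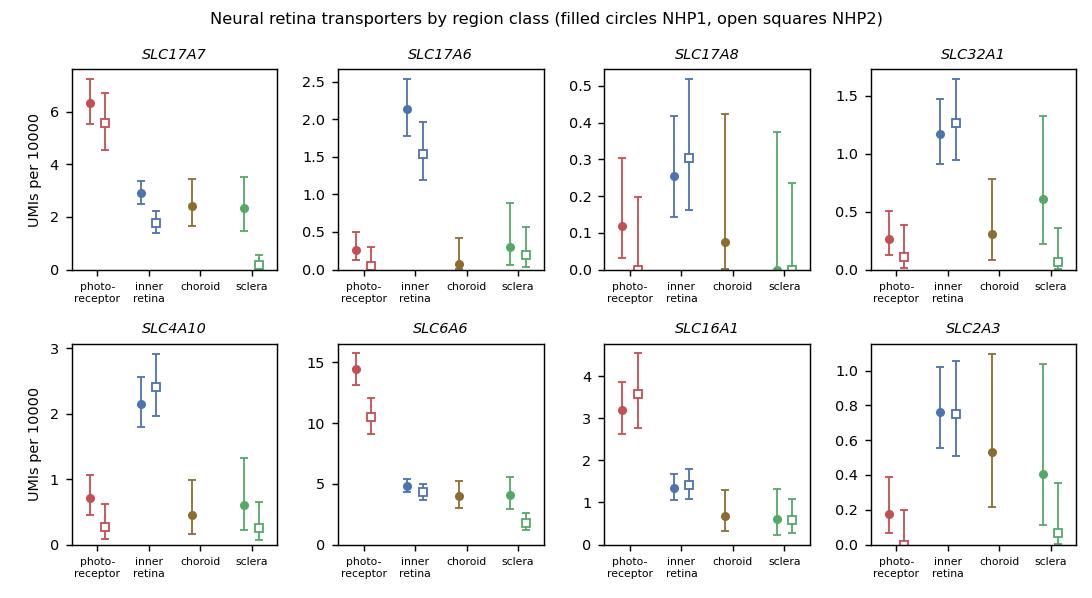
UMIs per 10000 of 8 transporters in each region class (filled circles NHP1, open squares NHP2), with exact Poisson 95% intervals as bars. SLC17A7, SLC6A6 and SLC16A1 are highest in the photoreceptor regions, and SLC17A6, SLC17A8, SLC32A1, SLC2A3 and SLC4A10 in the inner retina. No choroid region was found in NHP2.

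Promoters were read for the members with a gene of the same symbol in the annotation of the build (152 of 157), as the 250 bases before the gene start in Mmul_10. The letters TAATCC, the core bound by the photoreceptor and RPE homeodomain factors CRX and OTX2, were searched on both strands. They occurred in 15 promoters (9.87%), beside 8.11% of the 7942 promoters of all genes with at least 20 UMIs. None of the 4 promoters of the members called in both photoreceptor regions held them, and none of the 6 of the inner retina members. Of the 26 promoters of the choroid members 2 did (7.69%), those of SLC20A2 and SLC22A8. A match is a description of the letters only. The vesicular glutamate transporters with opposite layers are shown, and SLC22A8 as an example of the 15 with the letters. Each is given 5′ to 3′ on the strand of the gene, with the motif in capitals where it occurs. SLC17A7 lies on the minus strand at chr19:49379582-49392005 and its promoter at chr19:49392006-49392255, SLC17A6 on the minus strand at chr14:43185523-43227407 with its promoter at chr14:43227408-43227657, and SLC22A8 on the plus strand at chr14:11181131-11204510 with its promoter at chr14:11180881-11181130.
SLC17A7: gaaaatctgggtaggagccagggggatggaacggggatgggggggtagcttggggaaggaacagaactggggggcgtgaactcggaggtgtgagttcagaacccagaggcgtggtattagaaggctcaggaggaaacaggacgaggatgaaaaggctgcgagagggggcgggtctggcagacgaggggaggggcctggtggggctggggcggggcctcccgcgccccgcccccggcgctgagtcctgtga
SLC17A6: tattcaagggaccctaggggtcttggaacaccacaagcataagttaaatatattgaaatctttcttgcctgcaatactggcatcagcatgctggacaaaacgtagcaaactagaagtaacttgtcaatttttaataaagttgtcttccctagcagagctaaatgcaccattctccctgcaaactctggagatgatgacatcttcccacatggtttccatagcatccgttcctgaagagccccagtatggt
SLC22A8: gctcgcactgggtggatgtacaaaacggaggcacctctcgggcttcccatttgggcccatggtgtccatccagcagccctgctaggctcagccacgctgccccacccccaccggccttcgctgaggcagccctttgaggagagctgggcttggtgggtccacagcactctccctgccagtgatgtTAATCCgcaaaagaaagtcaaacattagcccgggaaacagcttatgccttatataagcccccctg
The first 2 promoters hold no TAATCC, and that of SLC22A8 holds 1, at 65 bases before the start.

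SLC6A6, the taurine transporter, was the most abundant of the 157 genes (1627 UMIs) and the most abundant of them in the photoreceptor regions of both animals. Taurine is a major free amino acid of the retina and photoreceptors degenerate without it. Its level was 14.4 (13.2 to 15.8) in the photoreceptor regions, 4.84 (4.29 to 5.43) in the inner retina, 4.03 (3.02 to 5.27) in the choroid and 4.05 (2.90 to 5.52) in the sclera of NHP1. The corresponding levels in NHP2 were 10.5 (9.09 to 12.1), 4.30 (3.70 to 4.97) and 1.79 (1.19 to 2.58) in photoreceptor, inner retina and sclera regions. The levels in the other named classes were all below those off the tissue (6.04 and 5.72), and the unnamed spots of NHP1 had 10.3 (9.23 to 11.5). The ratio to the rest was 2.32 (2.06 to 2.60) and 2.84 (2.33 to 3.45). In the unnamed region led by ENPP2, RGR and TIMP3 its level was 9.89 (6.46 to 14.5). SLC6A8, the creatine transporter, had overlapping intervals in all 4 classes of NHP1, with 1.75 (1.33 to 2.25), 1.86 (1.53 to 2.24), 1.60 (0.988 to 2.44) and 1.82 (1.08 to 2.88) in photoreceptor, inner retina, choroid and sclera regions. SLC6A12 (BGT1), a carrier of betaine and GABA, had 16 UMIs in the photoreceptor regions and 10 in the choroid of NHP1, but 3 in the inner retina, which held more UMIs in all. Its level was 0.474 (0.271 to 0.769) in the photoreceptor region of NHP1, where 5 of 15 RPE markers were raised, and 1.90 (0.618 to 4.44) in the unnamed region led by ENPP2, RGR and TIMP3, where 10 were, with overlapping intervals, against 0.363 off the tissue.

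SLC16A1 (MCT1), a lactate and pyruvate carrier, was called in the photoreceptor regions of both animals, and the main glucose transporters were not. SLC16A1 had 3.20 (2.62 to 3.86) UMIs per 10000 in the photoreceptor regions and 1.34 (1.06 to 1.66) in the inner retina of NHP1. In NHP2 it had 3.57 (2.77 to 4.54) and 1.40 (1.07 to 1.80). SLC2A1 (GLUT1), the glucose transporter of the blood-retinal barrier and of photoreceptors, was highest in the inner retina of NHP1, at 8.50 (7.78 to 9.28), and lower in its photoreceptor region, at 4.77 (4.06 to 5.56). In NHP2 its levels there were 7.34 (6.55 to 8.19) and 7.20 (6.04 to 8.52), with overlapping intervals. The ratio of photoreceptor regions to the rest was 0.660 (0.554 to 0.782) in NHP1 and 1.24 (1.01 to 1.51) in NHP2, so the direction differed, and this difference was not tested. The photoreceptor region of NHP2 also held the higher summed level of RPE markers (184 against 86.2 UMIs per 10000). The part of RPE transcripts in the SLC2A1 and SLC16A1 levels of both photoreceptor regions was not tested. In the unnamed region of NHP1 led by ENPP2, RGR and TIMP3, SLC2A1 was at 7.23 (4.35 to 11.3). SLC2A3 (GLUT3), the neuronal glucose transporter, was at 0.761 (0.555 to 1.02) and 0.748 (0.511 to 1.06) in the inner retina. In the photoreceptor region of NHP2, where 3 UMIs would be 0.160 per 10000, it had 0 UMIs. Off the tissue SLC2A3 was at 0.573 and 0.390.

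Mitochondrial carriers held the largest share of the family's UMIs and followed the neural retina. The 30 members summed to 38.3 (36.2 to 40.4) UMIs per 10000 in the photoreceptor regions, 31.6 (30.2 to 33.1) in the inner retina, 24.2 (21.6 to 27.0) in the choroid and 22.7 (19.8 to 25.9) in the sclera of NHP1. In NHP2 they summed to 34.5 (31.9 to 37.3), 32.4 (30.7 to 34.2) and 17.8 (15.7 to 20) in photoreceptor, inner retina and sclera regions. Of the 30, 1 was called in the inner retina of NHP2, against 10.7% of all genes. In the photoreceptor regions 2 were called in NHP1 and 5 in NHP2, against 4.86% and 7.29% of all genes. SLC25A25, a calcium-dependent carrier of ATP and phosphate, was called in both, at 2.99 (2.43 to 3.63) against 1.05 (0.804 to 1.34) in the inner retina of NHP1, and at 2.61 (1.93 to 3.45) against 1.43 (1.09 to 1.83) in NHP2. SLC25A3, which brings phosphate into mitochondria, had 7.13 (6.26 to 8.09) and 7.73 (7.03 to 8.47) in photoreceptor and inner retina regions of NHP1, and the intervals overlapped. SLC25A4, the ADP and ATP exchanger of heart, muscle and nerve, had 5.18 (4.44 to 6.01) and 5.14 (4.58 to 5.75) there, with overlapping intervals too. SLC25A22, a glutamate carrier, was at 3.34 (2.76 to 4.02) in the photoreceptor region of NHP1 and 1.88 (1.54 to 2.26) in the inner retina, against 2.93 (2.21 to 3.82) and 2.36 (1.92 to 2.87) in NHP2, where the intervals overlapped.

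Ion transporters included another inner retina gene. SLC4A10, a sodium-dependent bicarbonate transporter of neurons, had 2.15 (1.79 to 2.55) UMIs per 10000 in the inner retina and 0.710 (0.455 to 1.06) in the photoreceptor region of NHP1, and 2.41 (1.96 to 2.92) and 0.267 (0.0866 to 0.622) in NHP2. Its ratio of inner retina to the rest was 1.81 (1.39 to 2.36) in NHP1, under the 2-fold limit, and 10.1 (5.12 to 22.7) in NHP2. Off the tissue it was at 1.15 and 1.04, above its photoreceptor levels. In NHP1 it was at 3.12 (2.32 to 4.12) in an unnamed region of 14 spots led by GABRR1, ACKR1 and HPCA. Of the 14 chloride, bicarbonate and proton members, 4 were called in the choroid of NHP1 and 1 each in its photoreceptor, inner retina and sclera regions. In NHP2 4 were called in the inner retina, 2 in the sclera and 1 in the photoreceptor region. Of all genes, 10.7%, 4.86%, 5.38% and 5.71% were called in these classes of NHP1, in the order named. In those of NHP2 the shares were 10.7%, 11.2% and 7.29%. SLC45A1, a proton-coupled sugar transporter of the brain, was rare and called in the inner retina of both animals, with 17 and 15 UMIs there.

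Amino acid transporters were, as a sum, higher in the photoreceptor regions than in the inner retina. The 13 members summed to 11.0 (9.89 to 12.2) UMIs per 10000 in the photoreceptor region, 7.41 (6.73 to 8.13) in the inner retina, 9.12 (7.56 to 10.9) in the choroid and 7.90 (6.25 to 9.86) in the sclera of NHP1. In NHP2 they summed to 11.1 (9.69 to 12.8), 7.27 (6.48 to 8.12) and 8.56 (7.17 to 10.1) in photoreceptor, inner retina and sclera regions. SLC38A3 (SNAT3), a glutamine carrier, was the most abundant of them and had 5.45 (4.69 to 6.29) in the photoreceptor regions and 2.67 (2.27 to 3.12) in the inner retina of NHP1. Its levels in NHP2 were 4.91 (3.96 to 6.02) and 2.41 (1.96 to 2.92). Much of the difference between the sums thus lay in SLC38A3. The median ratio of the photoreceptor region to the rest over the 13 members was 1.04 in NHP1 and 1.21 in NHP2. SLC3A2, the heavy chain shared by several amino acid exchangers, was at 2.58 (1.79 to 3.61) in the choroid and 0.879 (0.657 to 1.15) in the inner retina of NHP1. In NHP1 2 of the 13 were called in the choroid, 1 in the sclera and none in the photoreceptor or inner retina regions. In NHP2 2 were called in the photoreceptor region, 3 in the sclera and none in the inner retina. For these and the next lists, the shares over all genes in NHP1 were 4.86% (photoreceptor), 5.38% (inner retina), 10.7% (choroid) and 5.71% (sclera). In NHP2 they were 7.29%, 10.7% and 11.2% in photoreceptor, inner retina and sclera regions. Of the 19 metal transporters 2 were called in the photoreceptor region, 2 in the choroid and 1 in the sclera of NHP1, and 1 in the inner retina and 2 in the sclera of NHP2. Those of the photoreceptor region were SLC31A2, a copper transporter, at a ratio of 2.78 (1.02 to 7.37) in NHP1 and 2.47 (0.707 to 8.13) in NHP2, and SLC40A1 (ferroportin), the cellular iron exporter. The call of SLC31A2 in NHP1 was lost with classes by the marker score of each spot, at 1.99 (0.751 to 5.45). It was also lost with region names by the share of raised markers alone, at 2.52 (0.922 to 6.68). Without the piece of tissue with the most spots its ratio was 2.21 (0.714 to 6.44). SLC40A1 was at 1.10 (0.771 to 1.51) in the photoreceptor regions and 0.254 (0.142 to 0.418) in the inner retina of NHP1, and at 0.960 (0.569 to 1.52) and 0.374 (0.214 to 0.607) in NHP2. Of the 17 nucleotide sugar transporters 1, SLC35D1, was called in the photoreceptor region of NHP1, at a ratio of 2.5 (1.48 to 4.18), but had a ratio of 0.532 (0.161 to 1.38) in NHP2, and 2 were called in the choroid. SLC8A2, a sodium and calcium exchanger, was the sole member of its list with at least 20 UMIs, and SLC24A1, the exchanger of rod outer segments, had 13 UMIs in all and is no member. Of the 26 carriers of nucleosides, organic ions, vitamins, phosphate and peptides, 7 were called in the choroid of NHP1, 2 in its sclera, 1 in its photoreceptor region and none in its inner retina. In NHP2 3 were called in the photoreceptor region, 2 in the inner retina and 2 in the sclera. The most abundant, SLC22A17, a receptor for the iron-binding protein lipocalin 2, was at 3.72 (3.24 to 4.25) in the inner retina and 3.44 (2.39 to 4.81) in the sclera of NHP1, where the intervals overlapped, and at 3.60 (3.05 to 4.21) and 6.2 (5.02 to 7.56) in NHP2, where they did not. SLC23A2 (SVCT2), which takes up vitamin C, was at 1.51 (1.12 to 1.98), 1.34 (1.06 to 1.66) and 1.67 (1.05 to 2.53) in photoreceptor, inner retina and choroid regions of NHP1, with overlapping intervals.

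Members with their highest levels in the classes where RPE markers were highest included a lactate carrier, an organic anion transporter and an anion exchanger. SLC16A8 (MCT3), the lactate carrier of the basal RPE membrane, had 9 UMIs in the choroid and 7 in the photoreceptor region of NHP1. It had 0 in the sclera of NHP1 and 0 in the inner retina, where 3 UMIs would be 0.0507 per 10000. Off the tissue it was at 0.172 per 10000. All 7 UMIs of SLC16A8 in NHP2 lay in the photoreceptor region, at a ratio to the rest of 7.69 with 3 UMIs taken for the 0. SLC22A8 (OAT3), an organic anion transporter, had 0.760 (0.364 to 1.40) UMIs per 10000 in the choroid and 0.207 (0.0833 to 0.427) in the photoreceptor region of NHP1, and 1.07 (0.651 to 1.65) in the photoreceptor region of NHP2, against 0.0845 (0.0274 to 0.197) and 0.117 (0.0379 to 0.273) in the inner retina and 0.344 and 0.650 off the tissue. In the unnamed region of NHP1 led by ENPP2, RGR and TIMP3, SLC22A8 had 5 UMIs, at 1.90 (0.618 to 4.44), and SLC16A8 had 0. SLC4A2 (AE2), a chloride and bicarbonate exchanger, had 3.80 (2.82 to 5.01) in the choroid, 1.27 (0.921 to 1.71) in the photoreceptor regions and 0.490 (0.328 to 0.704) in the inner retina of NHP1. In NHP2 it had 3.20 (2.44 to 4.12) in the photoreceptor region, 2.11 (1.45 to 2.96) in the sclera and 0.327 (0.179 to 0.549) in the inner retina. SLC9A3R1 (NHERF1), a scaffold that holds exchangers under the apical membrane, was at 4.10 (3.08 to 5.35) in the choroid region of NHP1, above every other class of that section, and at 2.29 (1.66 to 3.09) in the photoreceptor region of NHP2. These classes are the named ones with the highest summed RPE markers in each section (273 and 184 UMIs per 10000), and the part of RPE transcripts in the levels was not tested.

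Other members called in the choroid region of NHP1 were scaffolds, ion and phosphate transporters. SLC9A3R2 (NHERF2), a scaffold related to SLC9A3R1, was at 2.28 (1.54 to 3.25) against 0.608 (0.223 to 1.32) in the sclera. In NHP2, where no choroid region was named, it was called in the sclera, at a ratio of 4.34 (2.31 to 8.16). SLC12A7 (KCC4), a potassium and chloride cotransporter, was at 1.22 (0.695 to 1.97) in the choroid region of NHP1. SLC12A4 (KCC1), a related one, was at 1.14 (0.638 to 1.88) there. SLC20A2 (PiT2), a phosphate importer, and SLC15A3, a lysosomal peptide and histidine carrier of immune cells, both had 18 UMIs in the choroid region and ratios of 3.78 (2.07 to 6.60). Markers of mononuclear phagocytes summed to 23.7 UMIs per 10000 there and to 1.30 in the photoreceptor region, and their part in the SLC15A3 level was not tested.

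SLC44A2, a choline transporter-like protein of many tissues, had the highest ratio of sclera to the rest of all members with at least 100 UMIs, namely 5.09 (3.61 to 7.08) for NHP1 and 6.94 (4.76 to 10.2) for NHP2. It was at 5.07 (3.76 to 6.68) UMIs per 10000 in the sclera, 2.51 (1.73 to 3.52) in the choroid, 0.998 (0.759 to 1.29) in the inner retina and 0.178 (0.0652 to 0.387) in the photoreceptor region of NHP1. Levels in NHP2 were 4.92 (3.88 to 6.15), 0.864 (0.609 to 1.19) and 0.267 (0.0866 to 0.622) in sclera, inner retina and photoreceptor regions. Off the tissue it was at 0.898 and 0.910, above the photoreceptor levels. The classes kept the same order in both animals, and neighbouring intervals overlapped only for inner retina and photoreceptor regions of NHP2. SLC12A4 was called in both scleras too, at 0.912 (0.417 to 1.73) and 1.34 (0.830 to 2.05). SLC47A1 (MATE1), an exporter of organic cations, had 5 and 11 UMIs there and 1 and 0 in the photoreceptor regions. SLC43A3, a purine nucleobase carrier, had 11 and 7 UMIs in the scleras, and SLC11A1 (NRAMP1), a metal transporter of phagocytes, 5 and 14. SLC2A4RG, SLC2A10 and SLC66A3 complete the 8 that were called in both. Of the 8, SLC44A2, SLC2A4RG, SLC12A4, SLC66A3, SLC11A1 and SLC2A10 were also called in the choroid region of NHP1. The ratio of SLC66A3 was 7.91 (3.10 to 19.5) in that region and 3.90 (1.13 to 10.9) in the sclera of NHP1, with overlapping intervals. Classes by the marker score of each spot reversed this order, at 2.81 (0.906 to 7.46) and 6.999 (2.57 to 17.6), and the choroid call was lost. The order was also reversed without the piece of tissue with the most spots, at 3.91 (0.404 to 19.6) and 5.69 (0.589 to 28.5). As means over spots with at least 200 UMIs the ratios were 2.65 and 5.20, and the other settings kept the order. No choroid region was named in NHP2, so a part of choroid in its sclera levels cannot be told apart.

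**Figure D4:**
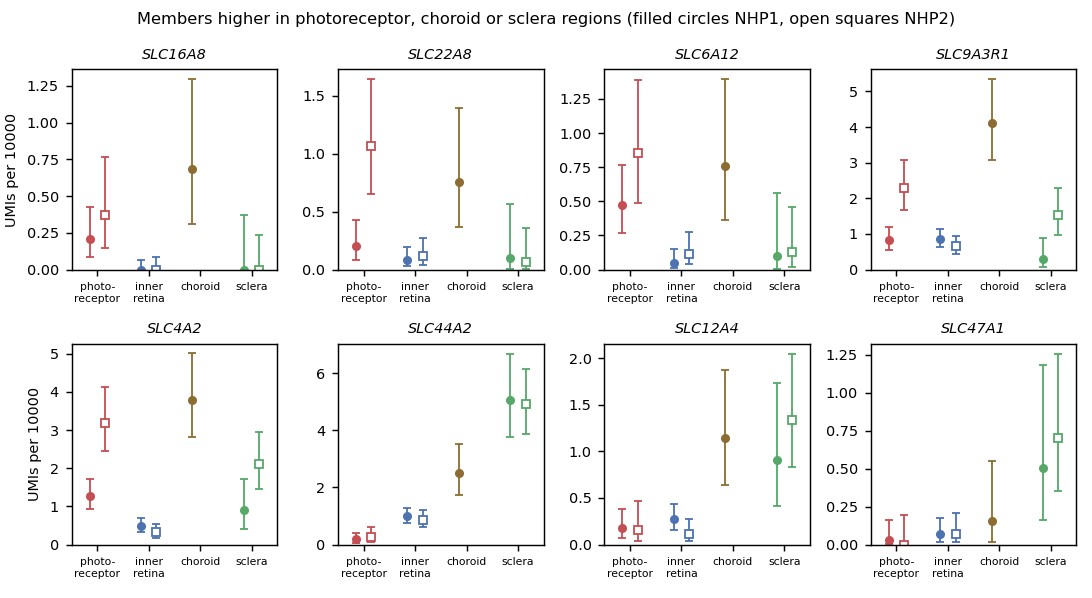
UMIs per 10000 of 8 members by region class (filled circles NHP1, open squares NHP2), with exact Poisson 95% intervals as bars. SLC16A8, SLC22A8 and SLC6A12 are near 0 in the inner retina and sclera, SLC9A3R1 and SLC4A2 peak in the choroid region of NHP1, and SLC44A2 and SLC47A1 in the sclera.

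The called members were also read in separate pieces of tissue on the same capture area. The pieces share the library and are no replicates, and the calls were made on their sum, so that a like direction in both is partly built in. Both large pieces of NHP1 held every class, and 11 of the 11 photoreceptor calls were above the rest in both (93.4% of all called genes were), as were 7 of the 8 inner retina calls (90.7%), 25 of the 27 choroid calls (95.4%) and 10 of the 11 sclera calls (86.5%). The exceptions included SLC2A3, SLC11A1 and SLC5A6. SLC6A6 was at 13.1 and 14.9 UMIs per 10000 in the photoreceptor region of the 2 pieces, and SLC17A6 at 1.97 and 2.28 in their inner retina. In NHP2 18 of 19 photoreceptor calls were above the rest in both pieces (94.7%, against 77.3% of all called genes). Of the sclera calls 13 of 18 were (72.2%, against 81.2%). The sclera exceptions included SLC2A4RG and SLC43A3, which were called in the scleras of both animals, and SLC48A1 and SLC4A7. The inner retina spots of NHP2 all lay in 1 piece. Over the 3 classes found in both animals, 80 of the 157 genes (51.0%) had their highest level in the same class in both, against 57.5% of all genes with at least 20 UMIs. Among members with at least 100 UMIs it was 38 of 66 (57.6%), against 62.7% of all such genes.

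**Figure D5:**
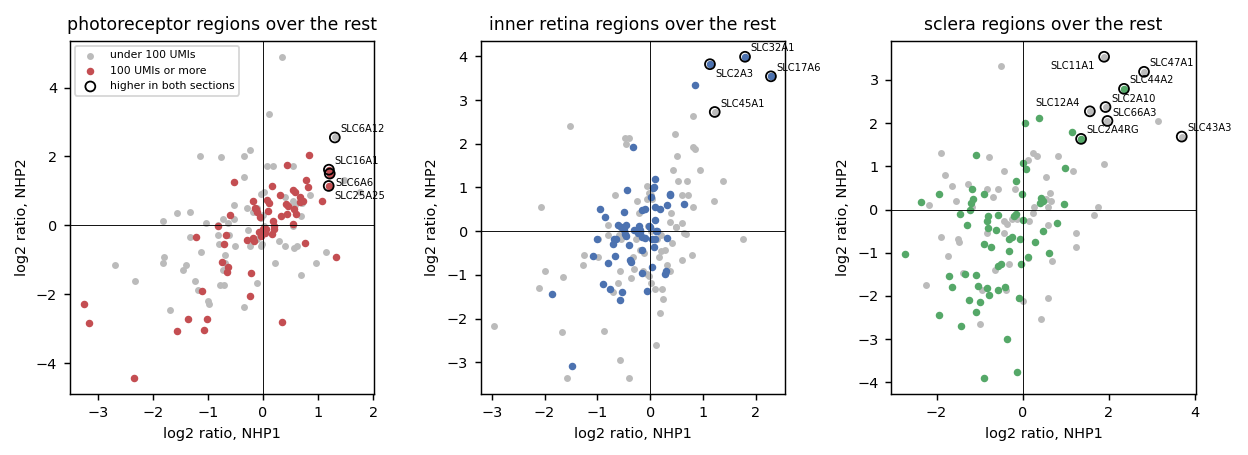
Log2 ratio of each region class to the rest of the tissue spots in NHP1 (horizontal) and NHP2 (vertical) for solute carrier genes with UMIs on both sides in both animals. Coloured points have at least 100 UMIs, grey ones fewer, and rings mark genes called higher in both. SLC17A6 and SLC32A1 lie at the upper right of the inner retina panel and SLC44A2 in that of the sclera.

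Between the animals, 12 of the 157 genes differed at least 2-fold over all tissue spots with an interval off 1, either way, against 8.06% of all genes. In the photoreceptor regions 15 of 157 did, against 6.82%, in the inner retina 9 of the 156 that could be compared, against 6.55%, and in the sclera 18 of 149, against 8.87%. Animal, library and the makeup of the regions cannot be told apart here. SLC25A6, an ADP and ATP exchanger, was lower in NHP2 in each class found in both, with NHP2 over NHP1 at 0.369 (0.158 to 0.765) in the photoreceptor regions, 0.480 (0.292 to 0.766) in the inner retina and 0.115 (0.0123 to 0.525) in the sclera. Its sequence is closely similar to that of other exchangers of its family, so its counts are uncertain. SLC17A7 was lower over all tissue, at 0.555 (0.469 to 0.655). It was also lower in the inner retina, at 0.611 (0.460 to 0.804), and in the sclera, at 0.0822 (0.0158 to 0.272). Its interval in the photoreceptor regions included 1, at 0.876 (0.686 to 1.11). SLC4A2 and SLC9A3R1 were higher in the photoreceptor region of NHP2, at 2.51 (1.67 to 3.81) and 2.77 (1.68 to 4.63), as was SLC22A8, at 5.15 (2.09 to 14.4).

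The authors' own measure of spatial order, Moran's I (a score near 0 for a random pattern and near 1 for patches of like spots), was highest among the members of NHP1 for SLC17A7 at 0.210, and it was 0.176 for SLC6A6 and 0.15 for SLC2A1. In NHP2, where spots held fewer UMIs, the same genes had 0.0419, 0.0242 and 0.0204.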

How the data were processed

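The deposited counts are raw UMI counts per gene and spot, made by the authors with Space Ranger 2.1.0 against Mmul_10 with transgene sequences added. Moran's I is a score per gene from the table the authors deposited. The other sections were not analysed here. The members and gene lists were chosen with earlier results of these data known.

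Tissue spots were clustered per section (scanpy 1.11.5, leidenalg 0.10.2) after removal of all SLC genes, with the 2000 most variable genes, 20 principal components, 15 neighbours and a resolution of 1. A region took the class (photoreceptor, inner retina from the lists of the inner nuclear and ganglion cell layers, choroid or sclera) with the largest share of its marker list raised, where a raised marker had at least 3 UMIs and 1.5 times the level of the rest, and needed at least 3 raised markers, making up at least 1 in 3 of the list. RPE and the other marker lists were not classes. A region with more markers of another list than of its class among its 10 leading genes stayed unnamed. The naming rule was set with the regions and member values already known. UMIs were summed per class and divided by the total, in units of 10000. Poisson intervals are exact, as are those of ratios (conditional binomial, scipy 1.17.1), checked on simulated data. A count of 0 was taken as 3 UMIs in ratios. At these depths 3 UMIs correspond to 0.0507 per 10000 in the inner retina of NHP1 and 0.304 in its sclera. The capture areas share 4341 spot barcodes, which are printed on the slide. No doublet caller was run, since a spot can hold several cells. Named genes were the 20 with the most UMIs, the 5 highest ratios per class and section, both ends of the ratio between sections, and members of the role lists. Values of a few single genes were left out of the text and plots and are not reported here. Of the members, 155 gene IDs carried the same symbol in the name table.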

Additional observations from a re-analysis of the deposited data

Results flagged for a closer look

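SLC2A1, the glucose transporter GLUT1, lay on opposite sides of 1 in the 2 animals. The ratio of photoreceptor regions to the rest of the tissue was 0.660 in NHP1 and 1.24 in NHP2, with intervals that did not include 1. The difference between the animals was not tested.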

How the results depend on the processing

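Of 141 recomputed counts and summed levels, 117 stayed within 1.5 times the count or within the interval of the level. A fold of 1.5 gave 20 called members in the photoreceptor region of NHP1. Region names by the share of raised markers alone, a setting chosen after seeing the data, put the 25 spots led by ENPP2, RGR and TIMP3 with the photoreceptors of NHP1 and 34 more spots with the sclera of NHP2, gave 9 and 21 calls there, and moved the ratio of SLC6A12 in NHP1 from 2.47 to 3.80 (1.91 to 7.67). Classes by the marker score of each spot gave 17 calls in the choroid of NHP1 and a summed level of 115.0 in its inner retina. With at least 50 UMIs there were 7 calls in the photoreceptor region of NHP1, 5 in its inner retina, 5 in its sclera, 11 in the sclera of NHP2 and 4 between the animals. With mitochondrial and the 50 most abundant genes out of the total, the sums were 150.8, 139.2, 129.6 and 110.6 in photoreceptor, inner retina, choroid and sclera regions of NHP1, and 143.3, 132.0 and 113.4 in photoreceptor, inner retina and sclera regions of NHP2. As means over spots with at least 200 UMIs, the sum was 84.1 in the sclera of NHP1 and 128.8 in the photoreceptor region of NHP2. Without the piece of tissue with the most spots, the sclera of NHP1 had 6 calls and a sum of 99.7, and SLC5A6 had a ratio of 0.949 (0.0231 to 5.82) there. That piece alone, chosen after seeing the data, gave a sum of 81.7 in the sclera of NHP1, 5 calls in its inner retina, 11 in its choroid, and 12 and 1 in the photoreceptor and sclera regions of NHP2. Of 305 ratios of single members, 280 moved by less than their interval and that of SLC5A6 changed direction. Over all alternatives the ratio of inner retina to the rest ranged from 3.48 to 6.90 for SLC17A6 in NHP1. The sclera ratio of SLC44A2 in NHP2 ranged from 4.23 to 22.7. A resolution of 0.5 left no photoreceptor region in NHP2, and the piece with the most spots held no inner retina of NHP2, so these gave no value. The causes of these shifts were not tested. No paired analysis was possible because each animal gave 1 section and no test was made. Depth limits the rare members, since 3 UMIs stand for 0.304 per 10000 in the sclera of NHP1.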
